A study of Mus musculus with 16 samples.

Results

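A set of 43 genes of DNA replication and mitosis was followed in the colon of mouse pups born by C-section (CSD) or by vaginal delivery (VD). The genes were taken by gene name from the 36711 genes measured on the arrays and hold 19 replication genes, 15 mitotic genes and 9 regulators of the cell cycle. Total RNA from the colon of 16 pups at weaning was hybridised on single-colour Agilent arrays, 1 array per pup. The 8 CSD pups came from 2 litters taken by hysterectomy near term, which were reared by foster mothers that had just delivered vaginally. The litter of mother 3 and the litter of mother 4 gave 4 CSD pups each, 2 females and 2 males per litter. The 8 VD pups came from 2 litters that were born vaginally and were exchanged between their mothers, so that both groups were reared by a dam other than their own. The litter of mother 5 gave 5 VD pups, 2 females and 3 males, and the litter of mother 6 gave 3 males and no female. All pups were of the outbred RjOrl:SWISS stock, and each pup is named here by its group and the number in its label. Each of the 2 array slides held 4 CSD and 4 VD pups. The share of gene spots well above background was 61.6% to 64.5% in the CSD pups and 58.7% to 64.9% in the VD pups.

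The labelled tissue was compared with its markers. All 10 markers of colon epithelium were well above background on every array, and the Krt8 probes gave the brightest signal, which does not rank the genes by abundance. Of 6 markers of small intestine, Fabp2, Fabp6 and Slc10a2 were well above background on every array and Apoa4, Lct and Sis on none. Fabp2, the brightest, averaged 11.92 ± 0.51 in CSD and 11.23 ± 0.45 in VD pups (SD, n = 8 each). In 5 CSD pups it lay above every VD pup, and the difference in the fit was 0.63 log2 units (SE 0.24, limma adjusted p = 0.207). The part of small intestinal signal in the values below was not tested.

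In the colon, the cells at the base of the crypts divide throughout life and replace the epithelium above them. Before S phase, the Mcm2 to Mcm7 helicase is loaded at origins by Cdc6 and Cdt1, and the E2F factors raise the transcription of these licensing genes and of the nucleotide and polymerase genes once the D and E cyclins with their kinases have inactivated Rb. The genes of mitosis (B cyclins, Cdk1, the Aurora and Polo kinases, the spindle checkpoint) are transcribed later, in G2, and many of their promoters hold CHR and CCAAT elements. Cdkn1a (p21) and Cdkn1b (p27) restrain the kinases.

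These elements were searched in the promoters of the members. RefSeq windows of the 250 bases before the gene start (GRCm38.p6) were found for 34 of the 43 genes (not for Aurkb, Ccna2, Ccnd1, Ccnd2, Ccne2, Gins1, Gins2, Mcm4 and Pole), and each motif was searched on both strands. An E2F motif, spelled TTTCCCGC, TTTGGCGC, TTTCGCGC or TTTGCCGC, was present in 6 of 15 replication genes (40%), in 1 of 13 mitotic genes (7.69%), in 1 of 6 regulators (16.7%) and in 583 of all 27025 genes with a window (2.16%). The CHR motif TTTGAA was present in 6 of 13 mitotic genes (46.2%), in 1 of 15 replication genes (6.67%) and in 18.3% of all genes. CCAAT was present in all 13 mitotic genes with a window, in 11 of 15 replication genes (73.3%) and in 37.5% of all genes. The windows shown are those of the 2 replication genes with an E2F motif and the 2 mitotic genes with a CHR that correlated best with their own class across pups. Mcm5 (chr8:75109346-75109508, plus strand) and Mcm6 (chr1:128359706-128359825, minus strand) encode helicase subunits, and the capitals mark E2F motifs, which overlap at the first site of each. Cdc20 (chr4:118437344-118437463, minus strand), the activator of the anaphase-promoting complex, and Ccnb2 (chr9:70421555-70421731, minus strand), a B cyclin, are shown with the CHR in capitals. Every sequence is written 5′ to 3′, ends at the last base before the gene start and is the part of its window nearest that start (163 bases for Mcm5, 120 for Mcm6 and Cdc20, and 177 for Ccnb2).
Mcm5: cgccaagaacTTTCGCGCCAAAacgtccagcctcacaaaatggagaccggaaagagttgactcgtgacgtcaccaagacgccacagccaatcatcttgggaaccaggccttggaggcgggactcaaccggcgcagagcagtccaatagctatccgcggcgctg
Mcm6: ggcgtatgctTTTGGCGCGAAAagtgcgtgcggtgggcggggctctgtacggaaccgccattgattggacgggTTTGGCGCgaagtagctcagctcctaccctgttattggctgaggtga
Cdc20: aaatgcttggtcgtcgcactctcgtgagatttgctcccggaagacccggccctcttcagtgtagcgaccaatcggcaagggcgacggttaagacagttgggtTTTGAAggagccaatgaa
Ccnb2: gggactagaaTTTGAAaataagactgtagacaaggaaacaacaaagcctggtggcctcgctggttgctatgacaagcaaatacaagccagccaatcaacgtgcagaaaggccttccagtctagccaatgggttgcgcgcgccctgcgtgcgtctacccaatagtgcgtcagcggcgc
A match to these letters is a description of the window and not of a bound site.

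The mitotic genes moved as a block between pups. Each gene was expressed as its deviation from its own mean over the 16 pups, in log2 units, and averaged over the class. The mean of the 15 mitotic genes ranged from -0.86 in CSD pup 5 to 0.28 in VD pup 9, a 2.21-fold span. The next lowest mitotic mean was -0.33, in CSD pup 7, so that this span rested largely on CSD pup 5. The mean of the 19 replication genes ranged from -0.30 in CSD pup 7 to 0.23 in VD pup 10, a 1.45-fold span. Across the 16 pups the correlation of a mitotic gene with the mean of the other 14 was 0.96 in the median (0.85 for Kif11, the spindle motor Eg5, to 0.98 for Cdc20). All 15 were at 0.8 or above, against 0.682% of the 20535 genes above background on every array. The median was still 0.90 without CSD pup 5 and 0.96 after the litter means were removed. These correlations describe 16 arrays that were normalised together.

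**Figure D1:**
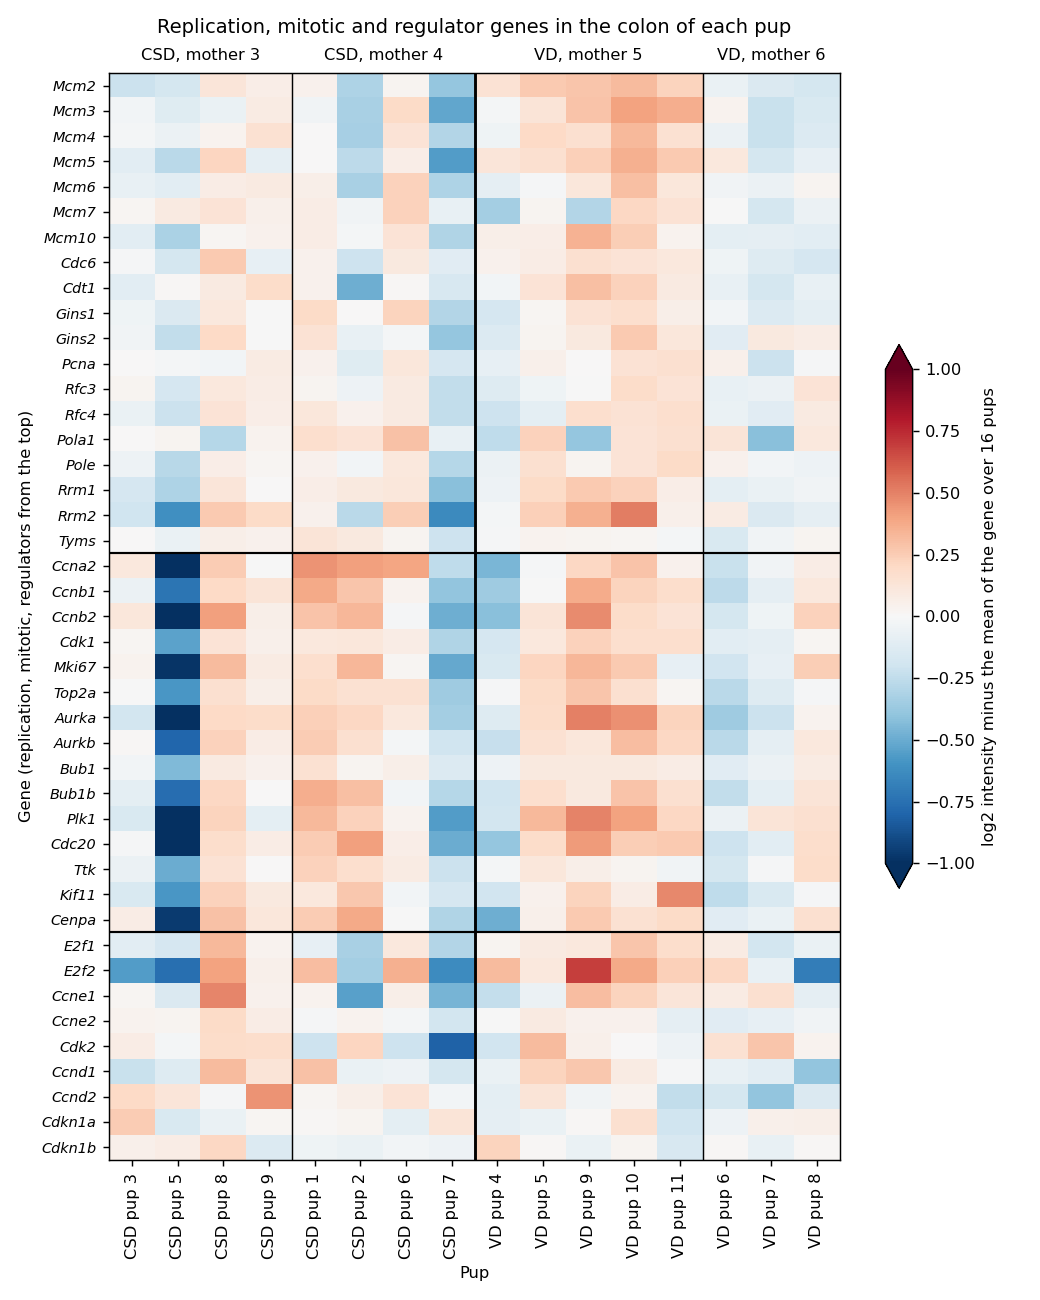
Heat map of the 43 genes (rows) in the 16 pups (columns, ordered by litter), coloured by the log2 intensity minus the mean of the gene over all pups, with colours cut at 1 and -1. The mitotic block darkens in CSD pup 5, and Mcm2, in the top row, is above its mean in all 5 pups of mother 5.

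The replication genes followed each other less closely. The correlation of a replication gene with the mean of the other members of its class had a median of 0.82, and 11 of 19 were at 0.8 or above, against 0.317% of all genes above background. Rrm2, the small subunit of ribonucleotide reductase, was highest at 0.91, followed by Mcm3 at 0.89 and Mcm5 at 0.89. The lowest were Mcm7, Pola1 and Tyms. Mcm7, a helicase subunit, was at 0.37, Pola1, the catalytic subunit of polymerase alpha, at 0.18, and Tyms, the thymidylate synthase, at 0.52. Among the regulators, E2f1 followed the replication mean (0.86) more than the mitotic mean (0.40), whereas the D cyclin Ccnd2 (0.15 and -0.0033), Cdkn1a (-0.19 and 0.21) and Cdkn1b (-0.066 and -0.25) followed neither.

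The spread between littermates differed by class as well. The SD of a gene within litters had a median of 0.33 log2 units for the mitotic genes, 0.16 for the replication genes and 0.17 for the regulators, beside 0.11 for all genes above background on every array. Plk1, the Polo kinase that drives mitotic entry, had the widest spread of the mitotic genes (0.457) and Bub1, a spindle checkpoint kinase, the narrowest (0.147). In the litter of mother 3, which holds CSD pup 5, the SD of Plk1 was 0.76. It was 0.395, 0.26 and 0.12 in the litters of mothers 4, 5 and 6. The Bub1 value averages a detected probe (SD 0.38 in CSD and 0.17 in VD pups) with a probe well above background on no array. The latter had SDs of 0.059 and 0.036 and narrows the average. Of the replication genes Rrm2 had the widest (0.31) and Tyms the narrowest (0.089).

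The replication and mitotic means were related but not interchangeable. Their correlation was 0.65 over 16 pups, 0.69 within litters, 0.68 without CSD pup 5, 0.61 in the CSD pups and 0.77 in the VD pups. On slide 1 it was 0.94 and on slide 2 it was 0.53, over 8 pups each. CSD pup 5 had a mitotic mean of -0.86 with a replication mean of -0.17, and CSD pup 2 had a mitotic mean of 0.25 with a replication mean of -0.13. CSD pup 7 was low in both (-0.33 and -0.30). In bulk RNA, fewer dividing cells and less RNA per dividing cell cannot be told apart.

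**Figure D2:**
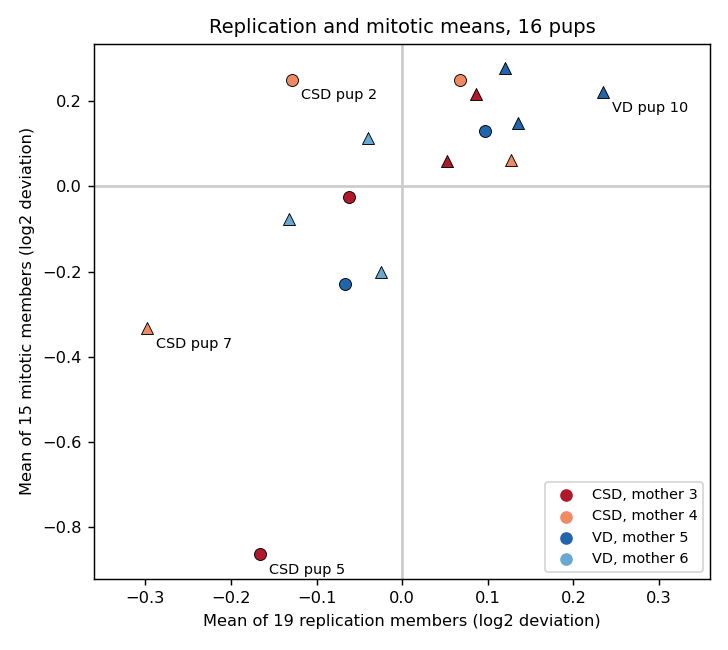
Mean of the 15 mitotic genes against the mean of the 19 replication genes in each pup (log2 deviation), with circles for females, triangles for males and colours for litters. Most pups lie along a diagonal, while CSD pup 5 lies far below it and CSD pup 2 above it.

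Markers of other cell types were followed in the same pups. The mitotic mean correlated at -0.67 with the mean of 7 enteric neuron and glia markers (-0.73 within litters, -0.56 without CSD pup 5), all 7 of them above background on every array and Uchl1 the brightest. That marker mean was lowest in CSD pup 1 (-0.15) and highest in CSD pup 5 (0.17). The replication mean correlated at 0.66 with the mean of 8 smooth muscle markers, Tagln the brightest and all above background on every array (0.64 within litters, 0.63 without CSD pup 5), and the mitotic mean at 0.42 (0.50 and 0.37). The marker mean was lowest in CSD pup 7 (-0.31) and highest in VD pup 5 (0.31). With 10 crypt stem and progenitor markers, Ephb3 the brightest, the correlations were 0.34 for the mitotic mean (0.31 within litters, 0.43 without CSD pup 5) and 0.18 for the replication mean (0.023 and 0.16). With 10 colon epithelium markers they were 0.23 (0.49 within litters, 0.27 without CSD pup 5) and -0.038 (0.029 and -0.068). With 6 small intestine markers they were -0.077 (0.23 within litters, -0.033 without CSD pup 5) and -0.44 (-0.22 and -0.44). The 6 T cell markers, Cd3d the brightest and 5 of them above background on every array, were highest in VD pup 6 (0.99) and correlated at -0.059 with the mitotic mean (-0.18 within litters, -0.37 without CSD pup 5) and 0.17 with the replication mean (0.19 and 0.11). The endothelium markers correlated at -0.10 with the mitotic mean (-0.47 within litters, -0.26 without CSD pup 5). With the replication mean they correlated at 0.19 (-0.016 and 0.18). For the B cell and germinal centre markers the values were 0.020 (-0.29 and -0.35) and 0.26 (0.068 and 0.19). For the fibroblast markers they were -0.16 (-0.13 and 0.036) and 0.34 (0.24 and 0.45). The part of any of these markers in the cell cycle genes was not tested.

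The main comparison asked whether birth by C-section changed the expression of these genes at weaning. No member passed an adjusted p of 0.05 in limma, whereas 460 of 36711 genes (1.25%) did. At an unadjusted p under 0.05 there were 2 of 43 members, Ccnd2 and Mcm5, against 14.5% of all genes. This count was 0 on slide 1 alone, 1 to 3 with any single pup left out and 11 without the litter of mother 6. The 14.5% is the share in the fit with all pups. Without the litter of mother 6 the genes called over all rose too, from 460 to 2265. The values of the CSD and VD pups overlapped for every member, and they did not overlap for 0.496% of all genes. By sign alone 32 of 43 members were lower in CSD pups (48.3% of all genes were), with a median log2 fold change of -0.056 beside 0.0029 for all genes. This held for 14 of 19 replication genes, 13 of 15 mitotic genes and 5 of 9 regulators.

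That direction depended on which litters and pups were included. Without the litter of mother 5, 9 of 43 members were lower in CSD pups, without the litter of mother 6 it was 38, without CSD pup 7 it was 21 and without CSD pup 5 it was 25. On slide 1 alone 37 were lower and on slide 2 alone 20, from models fitted to those arrays with sex. By plain group means it was 37 on slide 1 and 30 on slide 2 (14 of 19 replication and 12 of 15 mitotic genes). The means of both CSD litters lay under those of both VD litters for 5 members (Mcm5, Gins2, Pole, Rrm2 and Plk1), while 20.3% of all genes showed this. They lay above for Mcm7 and Ccnd2, as for 21.7% of all genes. With the litter of mother 6 left out, Mcm2 (log2 fold change -0.34, adjusted p = 0.0179) and Mcm5 (-0.34, adjusted p = 0.0452) passed the test, among 2265 genes called in that setting. With the litter of mother 5 left out, Mcm2 was at 0.083 (adjusted p = 0.803) and Mcm5 at -0.043 (adjusted p = 0.938).

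**Figure D3:**
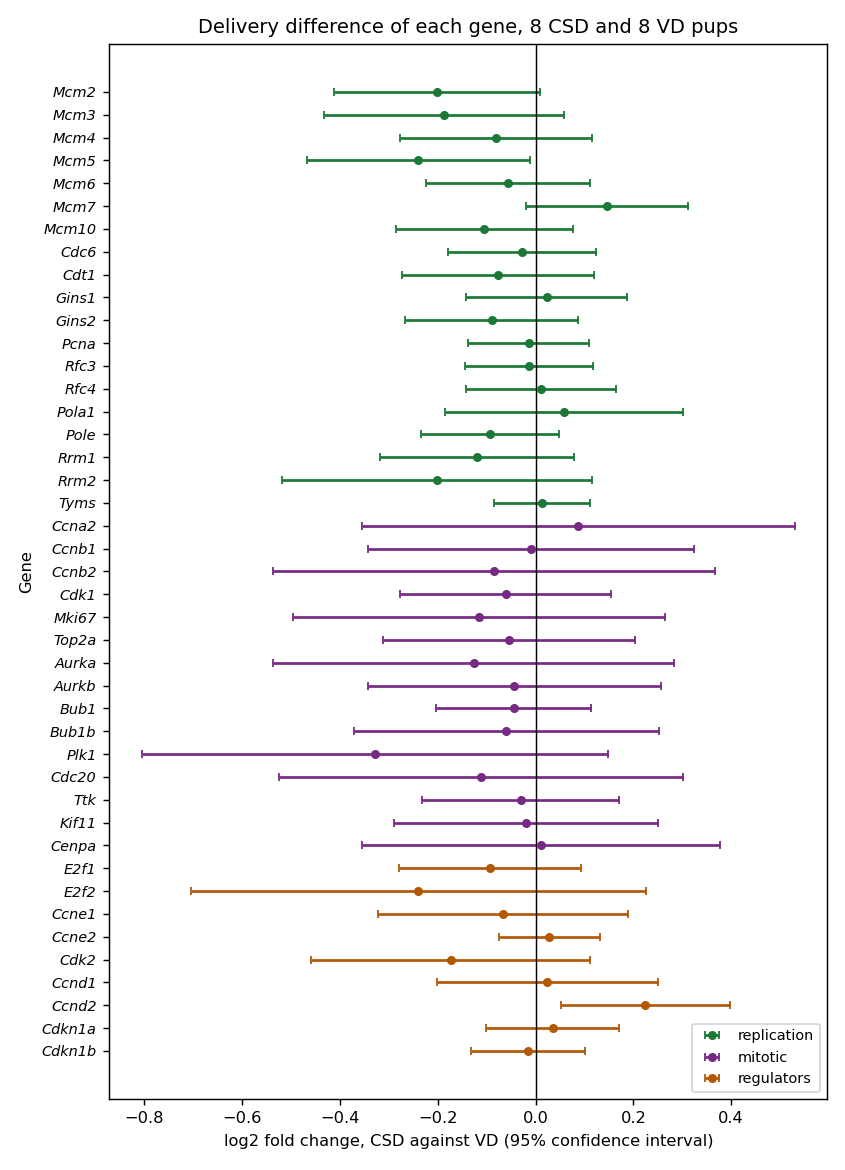
Log2 fold change of each gene, CSD against VD, with its 95% confidence interval from limma (8 pups per group). All intervals but those of Mcm5 and Ccnd2 include 0, and the widest is that of Plk1, from -0.80 to 0.15.

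Among the licensing and helicase genes, 6 of 7 Mcm members were lower in CSD pups by sign and Mcm7 was higher. On slide 2 alone 3 of the 7 were lower, with the replicate block 5, without CSD pup 7 also 5, and without the litter of mother 5 only Mcm5 was. Mcm5 (1 probe, mm9 chr8:77651350-77651410) measured 9.57 at the lowest, 10.03 in the median and 10.35 at the highest in CSD pups, and 9.96, 10.27 and 10.48 in VD pups. In 3 CSD pups Mcm5 lay under every VD pup. The log2 fold change was -0.24 (SE 0.11, 95% confidence interval -0.47 to -0.012, adjusted p = 0.314). Mcm2 (1 probe, mm9 chr6:88833619-88833678) measured 9.31, 9.62 and 9.81 in CSD pups against 9.51, 9.87 and 10.01 in VD pups, and its log2 fold change was -0.20 (SE 0.10, adjusted p = 0.374). In 4 CSD pups Mcm2 lay under every VD pup. Mcm7 went the other way, with 8.90, 9.04 and 9.20 in CSD pups and 8.63, 8.95 and 9.18 in VD pups. Its log2 fold change was 0.15 (SE 0.078, adjusted p = 0.419), and both of its probes were higher in CSD pups (by 0.18 and 0.067). Mcm4 measured 11.03, 11.35 and 11.51 in CSD pups and 11.14, 11.42 and 11.69 in VD pups, and Mcm6 9.60, 9.91 and 10.15 and 9.84, 9.93 and 10.22. Their log2 fold changes (-0.081, SE 0.093, and -0.056, SE 0.079) were smaller than their errors. Mcm3 (-0.19, SE 0.12) was lower with all 4 of its probes, and Mcm10, which supports helicase activation, was at -0.10 (SE 0.085).

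Among the genes of polymerases and clamp, Pcna, the sliding clamp, had the narrowest spread within litters (SD 0.108). It measured 12.09, 12.26 and 12.38 in CSD pups and 12.05, 12.29 and 12.42 in VD pups, with a log2 fold change of -0.014 (SE 0.058, 95% confidence interval -0.14 to 0.11). Groups overlapped over nearly their whole range.

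For the mitotic genes the intervals were wide. Mki67, the proliferation antigen Ki-67 (1 probe, mm9 chr7:142881591-142881650), measured 11.14, 12.18 and 12.46 in CSD pups and 11.93, 12.19 and 12.46 in VD pups. The medians nearly coincided. The log2 fold change was -0.12 (SE 0.18, 95% confidence interval -0.50 to 0.26, adjusted p = 0.828), and it was -0.018 without CSD pup 5, -0.017 without CSD pup 7 and -0.011 without the litter of mother 5. Plk1 (1 probe, mm9 chr7:129313220-129313279) measured 10.02, 11.48 and 11.84 in CSD pups and 11.33, 11.70 and 12.01 in VD pups. In 2 CSD pups Plk1 lay under every VD pup, and the log2 fold change was -0.33 (SE 0.22, 95% confidence interval -0.80 to 0.15, adjusted p = 0.55). It was -0.19 without CSD pup 5, -0.18 when the litter of mother 5 was left out and -0.46 when that of mother 4 was. Aurka, the Aurora kinase of the spindle poles, measured 9.93, 11.18 and 11.27 in CSD pups and 10.69, 11.15 and 11.55 in VD pups (log2 fold change -0.13, SE 0.19). Cdk1, the mitotic kinase, measured 7.92, 8.52 and 8.59 against 8.29, 8.52 and 8.68 (-0.061, SE 0.10). Top2a, the topoisomerase that untangles chromosomes, measured 7.99, 8.68 and 8.76 against 8.30, 8.58 and 8.85 (-0.054, SE 0.12). In each of these 3 genes the groups overlapped, and the lowest pup was CSD pup 5.

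The replication and the mitotic class were compared next. The class means differed between CSD and VD pups by -0.081 for replication (SD between pups 0.137) and by -0.096 for mitosis (SD 0.302), both within the spread between pups. Without CSD pup 5 the mitotic difference was 0.021. The difference between the classes was 0.015 (SD 0.239), and its sign turned in some leave-outs of CSD pups and of VD pups. Among these were CSD pup 5 (-0.083) and the litter of mother 3 (-0.11).

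The regulators held the member with the smallest p. Ccnd2, cyclin D2, measured 14.13, 14.24 and 14.60 in CSD pups and 13.76, 14.03 and 14.28 in VD pups, and 3 CSD pups lay above every VD pup. The log2 fold change was 0.22 (SE 0.081, 95% confidence interval 0.051 to 0.40, adjusted p = 0.195), and it was 0.078 on slide 1 alone, 0.38 on slide 2 alone, and between 0.14 and 0.38 with a pup or litter left out. Its 3 probes were all higher in CSD pups (by 0.20, 0.18 and 0.33). Ccnd1, cyclin D1, measured 11.12, 11.28 and 11.65 in CSD pups and 10.95, 11.30 and 11.61 in VD pups (log2 fold change 0.024, SE 0.11). Cdk2, the kinase of the E cyclins, measured 6.79, 7.63 and 7.82 in CSD pups and 7.41, 7.65 and 7.92 in VD pups (-0.17, SE 0.13). The groups overlapped for both, and CSD pup 7 had the lowest Cdk2 value. E2f2, an activating E2F factor, measured 9.27, 9.88 and 10.43 in CSD pups and 9.33, 10.25 and 10.72 in VD pups (-0.24, SE 0.22). Ccne1 measured 9.00, 9.57 and 10.03 in CSD pups and 9.30, 9.64 and 9.85 in VD pups (-0.067, SE 0.12). The fold change of this E cyclin was below its error. The single probe of the other E cyclin, Ccne2, was not well above background on any array and gave no usable difference.

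Both CDK inhibitors had fold changes below their errors. Cdkn1a measured 8.51, 8.68 and 8.92 in CSD pups and 8.47, 8.64 and 8.82 in VD pups (0.035, SE 0.064). Cdkn1b measured 9.41, 9.51 and 9.75 against 9.38, 9.55 and 9.76 (-0.016, SE 0.055). The probes of Cdkn1a disagreed. The probe at mm9 chr17:29237377-29237436 averaged 12.38 ± 0.17 in CSD and 12.58 ± 0.16 in VD pups (SD, n = 8 each), and the probe at mm9 chr17:29235299-29235358 averaged 7.56 ± 0.25 and 7.32 ± 0.33. A probe at mm9 chr17:29227986-29228045 was well above background on no array. With the brightest probe alone the log2 fold change of Cdkn1a was -0.22 (adjusted p = 0.24). Of the 22 members with at least 2 probes above background on every array, 10 had probes of opposite sign, and the gap between the Cdkn1a probes (0.45) was the widest.

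The VD litters differed in the direction of nearly all members. In the litter of mother 5, 40 of 43 members were higher than in the litter of mother 6, against 52% of all genes, with a median log2 difference of 0.19 beside 0.0045. All 19 replication and all 15 mitotic genes were among them. No member passed an adjusted p of 0.05, while 321 genes (0.874%) did. At an unadjusted p under 0.05 there were 11 members, all higher in the litter of mother 5, against 11.5% of all genes in either direction and 5.36% in this one. Of the 11, 7 were replication genes, all of origin licensing and the helicase (Mcm2, Mcm3, Mcm4, Mcm5, Mcm10, Cdc6 and Cdt1), and the others were Aurka, E2f1, E2f2 and Ccnd1.

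Mcm2 had the smallest p of these. It measured 9.83, 9.95, 9.97, 10.01 and 9.91 in the 5 pups of mother 5 and 9.63, 9.55 and 9.51 in the 3 pups of mother 6, with no overlap. The log2 difference was 0.41 (SE 0.10, 95% confidence interval 0.19 to 0.63, limma adjusted p = 0.0841), and it passed the threshold when CSD pup 1 (adjusted p = 0.0357) or CSD pup 7 (0.0227) was left out of the shared estimate of the spread. With a VD pup left out its adjusted p rose to between 0.110 and 0.258, the highest without VD pup 8, and it was 0.161 with the scanner-corrected intensity minus the 75th percentile. Mcm4 measured 11.32, 11.56, 11.52, 11.69 and 11.51 in the litter of mother 5 and 11.31, 11.14 and 11.23 in that of mother 6, again with no overlap. The difference was 0.34 (SE 0.10, adjusted p = 0.147). E2f2 differed by 0.66 (SE 0.28, adjusted p = 0.376) and Aurka by 0.54 (SE 0.25, adjusted p = 0.416). With males only, since the litter of mother 6 held no female, 40 members were again higher and 13 had an unadjusted p under 0.05. The shares of all genes given above are of the fit with all pups. With males only 204 genes passed an adjusted p of 0.05, beside 321 with all pups. Within slide 1, which held 3 pups of mother 5 and 1 of mother 6, the mean was higher in the litter of mother 5 for 40 members. Within slide 2, where the litters had 2 pups each, it was higher for 27 members, 15 of 19 replication genes and 7 of 15 mitotic genes (median of the mitotic genes -0.011). Marker lists of other cells moved between these litters too. In the litter of mother 5 the markers were higher for 7 of 9 B cell genes (median 0.31), 7 of 8 smooth muscle genes (0.093), 5 of 6 fibroblast genes (0.10), 4 of 5 endothelium genes (0.055), 7 of 10 colon epithelium genes (0.19, 3 at an unadjusted p under 0.05) and 7 of 10 crypt genes (0.077, 3 at an unadjusted p under 0.05). They were lower for 5 of 6 T cell genes (-0.20), 4 of 6 small intestine genes (-0.082) and 4 of 7 neuron and glia genes (-0.0062). Their part in the members' differences was not tested. Dam, rearing and other properties of a litter cannot be told apart from litter here.

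**Figure D4:**
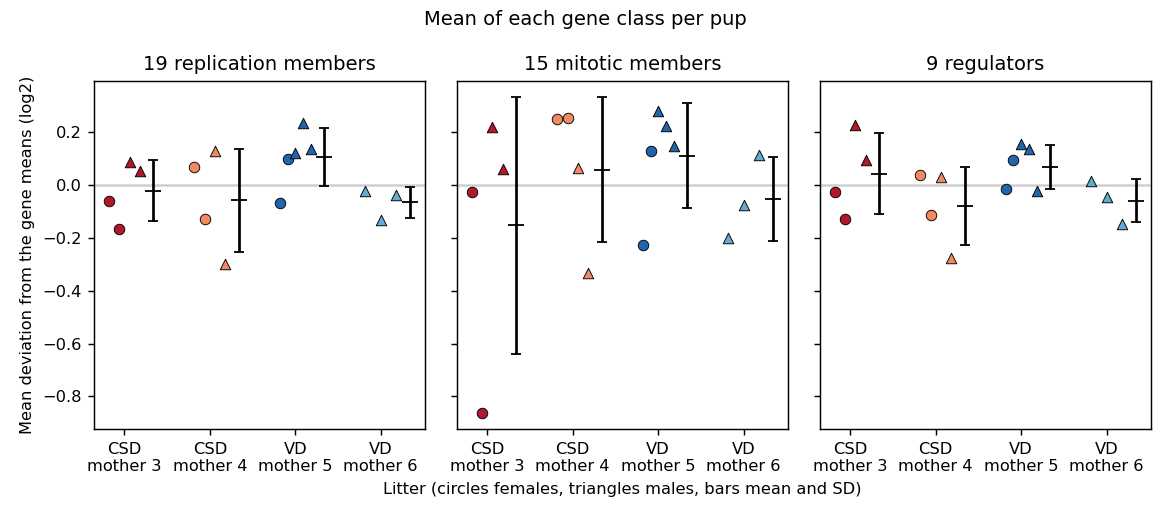
Mean log2 deviation of the 19 replication genes, the 15 mitotic genes and the 9 regulators in each pup, by litter, with the mean and SD of each litter at its right. The replication means of 4 of 5 pups of mother 5 lie above those of all 3 pups of mother 6, and CSD pup 5 lies lowest for the mitotic genes at -0.86.

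The CSD litters differed in another pattern. No member passed an adjusted p of 0.05 (32 genes did, 0.0872%), and 3 had an unadjusted p under 0.05 (7.68% of all genes). The latter count was 9 with males only, 7 without CSD pup 7, 6 without CSD pup 1 or CSD pup 6, and 1 without CSD pup 8 or CSD pup 9. The 7.68% is the share in the fit with all pups. Genes called over all numbered 45 with males only and between 23 and 36 with one of these pups left out. With all pups the 3 members were the regulators Ccne1 (log2 difference 0.33, SE 0.14, adjusted p = 0.609) and Cdk2 (log2 difference 0.35, SE 0.16, adjusted p = 0.626), both higher in the litter of mother 3, and Ccne2, whose single probe was not well above background on any array and gives no usable difference. Ccne1 measured 9.56, 9.40, 10.03 and 9.59 in the pups of mother 3 and 9.58, 9.00, 9.60 and 9.08 in those of mother 4. The litters overlapped. Without CSD pup 7, which had the lowest Cdk2 value, the difference was 0.17 for Cdk2 and 0.20 for Ccne1. It was larger in other settings, at 0.69 for Cdk2 and 0.47 for Ccne1 with males only. Cdk2 was at 0.50 without CSD pup 2, and Ccne1 at 0.48 without CSD pup 1. With the deposited matrix the values were 0.54 for Cdk2 and 0.31 for Ccne1. All 15 mitotic genes were lower in the litter of mother 3 (48.8% of all genes were), with a median of -0.19, but this rested on CSD pup 5. Without it 6 of 15 were lower, and with males only none was. Within slide 1 none was lower and within slide 2, which holds CSD pup 5, all 15 were. Of the replication genes, 12 of 19 were higher and 7 of 19 were lower in the litter of mother 3.

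**Figure D5:**
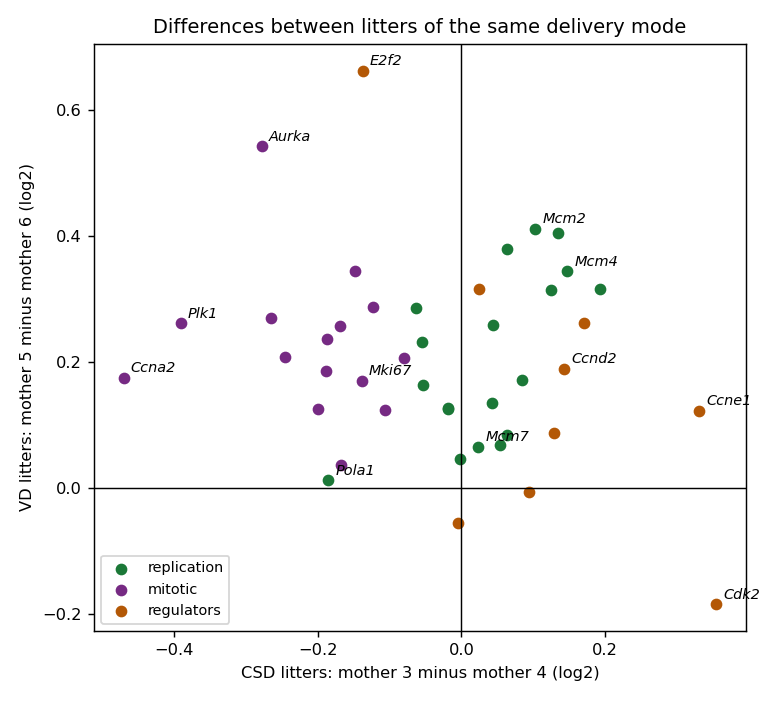
Log2 difference between the VD litters (mother 5 minus mother 6) against that between the CSD litters (mother 3 minus mother 4) for each of the 43 genes. All 15 mitotic genes lie left of 0 and above 0, while 12 of the 19 replication genes lie right of 0.

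Between sexes no member passed an adjusted p of 0.05 in limma, while 22 genes did (0.0599%). None had an unadjusted p under 0.05, as 6.45% of all genes had, but 6 did without CSD pup 7 and 8 on slide 2 alone. The 6.45% is the share in the fit with all pups. Genes called over all numbered 28 without CSD pup 7 and 11 on slide 2 alone. Lower values in females were seen for 37 of 43 members (51.8% of all genes), including all 15 mitotic genes, of which 5 remained lower without CSD pup 5, a female. The smallest p values belonged to Ccne1 (log2 difference -0.23, SE 0.12, adjusted p = 0.804) and Mcm6 (-0.13, SE 0.079, adjusted p = 0.832). For the interaction of delivery mode and sex no member passed an adjusted p of 0.05, with 1 gene called among all (0.00272%) and no member at an unadjusted p under 0.05 (4.72% of all genes), or 2 without CSD pup 5. Cdkn1b (-0.15, SE 0.11) and Ccnd2 (-0.21, SE 0.16, both adjusted p = 0.981) came closest.

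Further genes of the same processes were taken from lists. Of 44 other replication genes, 27 were lower in CSD pups (median -0.037) and 1 passed the test. At an unadjusted p under 0.05, 3 were higher and 5 lower, against 14.5% of all genes in either direction. Tipin, a partner of Timeless that protects the replication fork, measured 9.47, 9.65 and 9.93 in CSD pups and 9.80, 10.17 and 10.37 in VD pups. In 6 CSD pups Tipin lay under every VD pup. The log2 fold change was -0.43 (SE 0.095, 95% confidence interval -0.63 to -0.23, adjusted p = 0.0393), and across the other settings its direction held while the adjusted p ranged from 0.00511 to 0.426, under 0.05 in 14 of 38. In the VD litters 36 of the 44 were higher in the litter of mother 5 (median 0.12). At an unadjusted p under 0.05, 11 were higher and 2 lower, against 11.5% of all genes in either direction and 5.36% in the first. Gmnn, geminin, the inhibitor of Cdt1, passed the test (0.51, SE 0.11, adjusted p = 0.0482), as it did in 4 of 21 other settings. With a pup left out its difference lay between 0.34 and 0.63. Gmnn ranged from 8.53 in VD pup 8 to 9.51 in VD pup 10. In the CSD litters 29 were higher in the litter of mother 3.

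Of 55 other mitosis genes none passed the test in limma and none had an unadjusted p under 0.05 between CSD and VD pups, against 14.5% of all genes, and 39 were lower in CSD pups. Smc4, a condensin subunit, had the smallest p (0.14, SE 0.080, adjusted p = 0.434), followed by the spindle protein gene Dlgap5 (-0.16, SE 0.10, adjusted p = 0.532). In the VD litters 51 of 55 were higher in the litter of mother 5 and in the CSD litters 52 of 55 were lower in that of mother 3. The latter direction turned without CSD pup 5, with a mean of the list of 0.062 in the litter of mother 3 and 0.039 in that of mother 4 (-0.095 and 0.039 with it). Across the 16 pups the mean of these 55 genes correlated at 0.99 with that of the 15 mitotic members, and 41 of the 55 were at 0.8 or above. The mean of the 44 other replication genes correlated at 0.95 with that of the 19 replication members, but only 13 of the 44 reached 0.8, and Orc5, a subunit of the origin recognition complex, was at -0.57. Orc5 spanned only 0.12 log2 units over the 16 pups.

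Of 27 other regulators none passed the test between CSD and VD pups and 3 had an unadjusted p under 0.05 (1 higher and 2 lower, against 14.5% of all genes). Cdkn2d, the inhibitor p19 of the D cyclin kinases, was closest (-0.28, SE 0.074, adjusted p = 0.0814) and Trp53, which encodes p53, next (0.30, SE 0.10, adjusted p = 0.153).

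Of the markers of other cells, Bcl6, the germinal centre repressor, passed the test between CSD and VD pups (0.41, SE 0.092, adjusted p = 0.0409), higher in CSD pups, while 8 of the 9 B cell and germinal centre markers were lower (median -0.35). The Bcl6 call was lost in 11 of 18 other settings, the deposited matrix and the brightest probe among them, and in 13 of 20 with a pup or litter left out, with adjusted p up to 0.494. Its log2 fold change was 0.51 with the deposited matrix and 0.46 with the brightest probe. Across the other settings it ranged from 0.34 to 0.56, and from 0.28 to 0.48 with a pup or litter left out. Cd79b gave the brightest signal of the B cell list. All 6 T cell markers (median -0.29) and all 5 endothelium markers, Cldn5 the brightest (median -0.15), were lower in CSD pups, as were 7 of 8 smooth muscle markers (median -0.12) and 4 of 6 fibroblast markers, Dcn the brightest (median -0.053). Of 10 colon epithelium markers 9 were higher (median 0.17), as were 6 of 10 crypt markers (median 0.011), 5 of 7 neuron and glia markers (median 0.030) and 3 of 6 small intestine markers (median -0.0093). None of these other lists held a gene that passed the test. In the VD litters the fibroblast marker Pdgfra was higher in the litter of mother 5 (0.26, SE 0.055, adjusted p = 0.0436), a call lost in 4 of 5 other settings and in 12 of 16 with a pup left out (adjusted p up to 0.225). The Pdgfra difference was between 0.24 and 0.33 in the settings that lost the call, and 0.24 to 0.29 with a pup left out. The part of these markers in the values of the 43 genes was not tested.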

How the data were processed

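Colon RNA of 16 pups was measured on 1 single-colour Agilent array each. The authors deposited the scanner's intensities (62976 spots per array, probe positions on mm9) and a gene matrix in log2 units (27036 genes), which they had normalised and averaged per gene and which holds 42 of the 43 members. The members and lists were chosen with earlier results of these data known. From the deposited mean and background intensities, background was corrected by normexp (offset 50), control and outlier spots were left out (65 to 205 per array), and log2 values were quantile normalised between arrays and averaged per probe (56605 probes). Probes above the 5% quantile of an array in at least 4 arrays were kept (56366) and averaged by gene name (36711 genes). No member spot was saturated or an outlier. Levels of different genes were not compared, since probes differ in brightness, and the brightest marker of a list is named for its signal alone.

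CSD and VD pups were compared with limma 3.58.1 in R 4.3.3 with sex as a covariate and the birth mother as a random block (duplicateCorrelation, correlation 0.015), and litters with the 4 mothers and sex as fixed terms. P values were adjusted by Benjamini-Hochberg over all genes, and the fit was tested on simulated data. The simulated noise was independent between genes and pups, with no spread between litters beyond the shifts put in. That test therefore does not cover spread between litters or genes that move together. Pups of a litter share a dam, so p values between delivery modes with 2 litters each measure mostly the spread between pups. Correlations are descriptions. Every member was counted. Described in full were, in the absence of called members, the 3 with the smallest p of each class, the 2 with the smallest p in each other comparison, and Mki67, Pcna, Mcm2, Top2a, Ccnd1, Cdk1, Cdkn1a and Cdkn1b; members singled out for likeness, spread or outlying values were chosen after these were seen. Of the further lists (replication, mitosis, regulators and 9 marker lists), called genes or the 2 with the smallest p were named, and of markers the brightest. The values of 1 marker are not reported here. The alternatives were other background corrections, normalisations, filters, probe rules and models, the deposited matrix, single slides, males only, and leaving out each pup or litter. The number of arrays limits the precision.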

Additional observations from a re-analysis of the deposited data

Results flagged for a closer look

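Within a delivery group of 8 pups, 6 of 92 tests of a gene or class mean had a lowest or highest pup whose gap to the next exceeded Dixon's critical share of the range, and chance gives about 1 in 20. Of these, 3 fell on CSD pup 5. Ccna2, cyclin A2, measured 9.58 there and 10.56 in the next CSD pup. Aurka measured 9.93 there and 10.70 in the next, and Aurkb 7.07 and 7.66. Cdk2 measured 6.79 in CSD pup 7 and 7.40 in the next. Tyms measured 10.22 in VD pup 6 and 10.34 in the next. Ccnd2 was the only high one, at 14.60 in CSD pup 9 and 14.35 in the next. CSD pup 5 and CSD pup 7 had 64.5% and 61.6% of gene spots well above background, within the range of the other arrays, and that of CSD pup 7 was the lowest of the CSD pups. CSD pup 7 had the most outlier spots of all arrays (205), followed by CSD pup 8 (200), and the other arrays had 65 to 107. CSD pup 5 had 83. Whether its colon sample came from another segment or depth than the others is not known. The cause of these outlying values was not tested.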

How the results depend on the processing

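In the comparison of CSD and VD pups, no member was called in any of the 19 settings with all litters or with a subset of slides or sexes, nor when 1 pup was left out, and leaving out single pups or litters gave 0 to 2 called members, the 2 without the litter of mother 6. For sex, the interaction and the CSD litters it was 0 in every setting run. In the VD litters it was 0 in 5 settings and 0 to 2 with a pup left out. The 11 members at an unadjusted p under 0.05 in the VD litters became 7 with both treatments of the scanner-corrected intensity, 13 with males only, which was added after seeing the data, and 6 to 19 with a pup left out. Shares of all genes at an unadjusted p under 0.05 are given for the fits with all pups only. Members higher in the litter of mother 5 numbered 39 to 41 across settings and 38 to 41 with a pup left out. Members lower in CSD pups numbered 20 on slide 2 alone, 37 at most in other settings, and 9 to 38 with a pup or litter left out. Mitotic members lower in the litter of mother 3 numbered 0 with males only and 6 to 15 with a pup left out, and those lower in females 5 to 15. The class means moved by less than the SD between pups throughout, from -0.13 to -0.030 for replication and -0.22 to -0.075 for mitosis, or from -0.14 to 0.025 and -0.20 to 0.021 with a pup or litter left out. The difference between the classes ranged from -0.020 to 0.18 across settings and from -0.11 to 0.14 with a pup or litter left out. The sign of single genes was followed only for those described individually, and other members changed sign too, as the counts show. Among the described genes, those that changed sign with slide 1 alone were Ccnd1 (log2 fold change -0.064), Ccne2 (-0.021) and Cdkn1b (0.072). With slide 2 alone these were Cdk1 (0.0075), Cdk2 (0.066), Dlgap5 (0.0014), Mcm4 (0.045), Mcm6 (0.033), Pcna (0.027) and Top2a (0.051), and Mcm10 was higher in CSD pups there as well. With the brightest probe per gene Cdkn1a (-0.22) changed sign. With males only these were Cdkn1a (-0.0077) and Cdkn1b (0.039). With the replicate block these were Cdkn1a (-0.033), Cdkn1b (0.033), Mcm4 (0.0060) and Pcna (0.022). With litter means as samples Cdkn1b (0.0045) changed sign. With no sex in the model Cdkn1b (0.0017) changed sign. With scanner-corrected intensities minus the 75th percentile Pcna (0.0029) changed sign. None of these was past the threshold. With a pup or litter left out, the ranges of the described genes that changed sign were Aurka -0.31 to 0.21, Ccnd1 -0.080 to 0.24, Ccne1 -0.24 to 0.12, Ccne2 -0.052 to 0.099, Cdk1 -0.13 to 0.049, Cdk2 -0.37 to 0.048, Cdkn1a -0.022 to 0.059, Cdkn1b -0.067 to 0.027, Dlgap5 -0.28 to 0.10, E2f2 -0.46 to 0.23, Mcm2 -0.34 to 0.083, Mcm4 -0.19 to 0.15, Mcm6 -0.11 to 0.041, Pcna -0.059 to 0.059 and Top2a -0.15 to 0.14. Mcm3 and Mcm10 changed sign too, without the litter of mother 5. The cause was not tested.

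The numbers in the pup labels are shared by 5 CSD and VD pups. Deviations of same-numbered pups correlated between -0.049 and 0.22, over 0.1 in only 2 of 5 pairs. The labels do not say what the number stands for, and these correlations cannot show whether such pups share anything else. With the replicate block 0 members and 0 of all genes were called, 33 members were lower in CSD pups, and the class means differed by -0.044 and -0.22 (0.18 between the classes). Over all genes, the 460 calls became 0 with litter means as samples, males only or slide 2 alone, 11 with slide 1 alone, 102 and 243 with normexp offsets of 0 and 16, 177 and 164 with the scanner-corrected intensity (quantile, 75th percentile), 170 with the deposited matrix, 992 without sex, 1126 at an adjusted p of 0.1, and 138 to 2265 with a pup or litter left out. The Ccne2 probe, whose values above therefore give no usable difference, and 1 probe each of Bub1, Pole and Cdkn1a were well above background on no array.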

Other observations

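Genes outside the lists that followed the class means most closely over the 16 pups were named after their values were seen, and the correlations share the normalisation and the arrays. For the mitotic mean these were Gtse1 (0.98), Shcbp1 (0.97), Sgo1 (0.96), Iqgap3 (0.94), Prr11 (0.94) and Spag5 (0.92), most of them known for roles in the spindle, the centromere or cytokinesis. Predicted transcripts and a pseudogene that ranked among them are not named. For the replication mean these were Tcf19 (0.93), Hirip3 (0.92), Asf1b (0.92) and Dnajc9 (0.90), of which Asf1b and Dnajc9 are histone chaperones. Further named genes below them were Fancb (0.89), Idh2 (0.88), Mmel1 (0.88), Haus5 (0.88), Tssc4 (0.87), Exo1 (0.87) and Ncapg2 (0.86).

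CSD pup 5 was singled out for its low mitotic mean, so low mitotic genes there were given in advance. A ranking by log2 gap also favours genes with a wide spread, as the mitotic genes had. The counts that follow are descriptions only. In CSD pup 5, the 100 genes furthest below the median of the other CSD pups, among 20535 genes above background on every array, held 7 of the 15 mitotic members and 11 of 53 further mitosis genes, but no replication gene of either list. The other 82 were outside the cell cycle lists, and 41 of these were entries named only by a transcript identifier. Among the named ones, chosen after their values were seen, were Ggcx (-1.89), Hist2h2bb (-1.62), Apobec2 (-1.57), Areg (-1.44), Fos (-1.07) and Atf3 (-1.05). These are examples and were not tested as a group. Plk1 was at -1.53 log2 units from that median. The lowest of all was Znhit1 at -6.10.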
